A study of Mus musculus with 6 samples.

Results

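Carboxylesterase genes of the mouse were described in liver tumours driven by Myc with NrasG12V and in liver tumours driven by Myc with Akt1. They were the 10 genes Ces1b, Ces1c, Ces1d, Ces1e, Ces1f, Ces1g, Ces2a, Ces2e, Ces3a and Ces3b, found by symbol among 39179 genes in the deposited tables, and each was found once. They were picked with the values of this contrast already known, so their levels are given here as a description, with errors and without p-values. The annotation held 10 other carboxylesterase genes, and these are described after the members.

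The study compared the mRNA of 2 kinds of tumour, with 3 libraries each, all from wildtype mice of the C57BL/6 strain. The first kind received transposons encoding Myc and NrasG12V, a mutant Nras GTPase locked in its active state. The second received transposons encoding Myc and Akt1, a kinase that acts downstream of the insulin receptor. Both kinds therefore carry Myc, and no liver without a tumour was part of the comparison. The DNA was brought into hepatocytes by hydrodynamic injection, a fast tail vein injection of a large volume, so other cells of the liver were those of the host. The labels gave neither the age nor the promoters of the transposons, and did not say whether samples were pooled or came from separate animals. P-values therefore bear only on the spread between these samples.

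Depth was 17881282 to 21780251 reads in Myc/NrasG12V and 22005319 to 27865094 reads in Myc/Akt1. At these depths 3 reads, the limit that a count of 0 allows in a library, stood for 0.108 to 0.168 CPM, a gene's reads as a part of the library's total, and such limits cover counting error only. Nras and Akt1 were each higher in the tumours labelled with them, at 171 ± 25.0 against 56.0 ± 4.51 CPM for Nras and 65.1 ± 19.1 against 279.9 ± 33.8 CPM for Akt1 (Myc/NrasG12V against Myc/Akt1, mean ± SD, n = 3 each). The summed level of 6 hepatocyte markers was 109118 to 147346 CPM in Myc/NrasG12V and 37416 to 51060 CPM in Myc/Akt1. The 6 neutrophil markers summed to 20.4, 53.9 and 170.0 CPM in Myc/NrasG12V replicates 1, 2 and 3, against 1.47 to 1.95 CPM in Myc/Akt1. The 6 erythroid markers summed to 232, 821 and 1480 CPM in Myc/NrasG12V, against 45.9 to 88.6 CPM in Myc/Akt1. Myc/NrasG12V replicate 3 was thus the highest of the 6 libraries in both blood cell sums. The sums were 424 to 968 against 128 to 262 CPM for cholangiocytes, 104 to 231 against 81.7 to 110 CPM for macrophages and 11.2 to 30.3 against 2.93 to 5.36 CPM for T and NK cells, Myc/NrasG12V against Myc/Akt1. In the same order they were 145 to 228 against 165 to 205 CPM for endothelial cells, where the groups overlapped. They also overlapped for stellate cells and fibroblasts, at 334 to 412 against 264 to 425 CPM, and for adipocytes, at 1.00 to 3.86 against 0.273 to 8.36 CPM. Spp1, at 626 CPM in Myc/NrasG12V and 205 CPM in Myc/Akt1, made up most of the cholangiocyte sum. Of the tested markers, 2 of 6 for hepatocytes, 1 of 5 for cholangiocytes, 2 of 6 for macrophages, 4 of 5 for neutrophils, 4 of 6 for erythroid cells, 4 of 6 for T and NK cells and 1 of 6 for stellate cells rose in Myc/NrasG12V by limma at an adjusted p under 0.05. Of the 6 endothelial markers 3 rose and 1 fell. Of the adipocyte markers 1 was tested and it did not pass, with Lep at 0 in all 6 libraries. In bulk tissue fewer cells of a type and less RNA per cell cannot be told apart.

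Carboxylesterases are serine hydrolases that split ester, amide and thioester bonds in drugs, pesticides and lipids. In the liver most of them reside in the lumen of the endoplasmic reticulum of hepatocytes, where several take part in the turnover of stored triacylglycerol and in the assembly of lipoproteins. In the mouse the family has grown by tandem duplication, and rodents secrete one of its members, Ces1c, into the plasma, whereas humans have little carboxylesterase in plasma.

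The end of the coding sequence is shown for 6 members because it carries the signal that sorts the ones kept in the endoplasmic reticulum from others. Each line gives the last 45 coding bases in the GENCODE M21 annotation of GRCm38, on the strand of the gene, with the last 4 codons and the stop codon in capitals.
Ces1c: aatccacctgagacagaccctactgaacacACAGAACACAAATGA
Ces1d: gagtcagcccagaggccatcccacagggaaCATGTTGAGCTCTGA
Ces1e: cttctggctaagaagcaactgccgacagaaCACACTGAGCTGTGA
Ces2e: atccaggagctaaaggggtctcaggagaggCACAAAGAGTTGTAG
Ces3a: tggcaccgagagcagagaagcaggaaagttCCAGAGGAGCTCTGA
Ces3b: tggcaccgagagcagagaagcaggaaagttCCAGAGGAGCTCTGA
The codons of the HXEL type of retrieval signal stood at the end of 6 members, Ces1d, Ces1e, Ces1f, Ces1g, Ces2a and Ces2e. They were not found at the end of Ces1b, Ces1c, Ces3a and Ces3b, which says only that this codon pattern is not there. Ces3a and Ces3b have the same 45 bases.

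In CPM, 8 of the 10 members were lower in Myc/NrasG12V than in Myc/Akt1 in every library, Ces2e was higher in every library, and the groups overlapped for Ces2a. Over all 14365 genes tested, 38.0% were lower in every Myc/NrasG12V library than in any Myc/Akt1 library and 14.8% were higher. All 10 members passed the filter on low values. With limma on log2(CPM + 1), 8 members were lower, 1 was higher and Ces2a did not pass, beside 39.5% of all genes called in either direction, 29.5% lower and 10% higher. Nothing is read from the members' counts, since they were picked on this contrast. The split of the calls over all genes depended on scaling: with trimmed mean of M-values (TMM) factors 16.2% of all genes were higher and 17.9% lower. With TMM, median-of-ratios or upper-quartile factors, or with edgeR, 6 members were lower and 1 higher, as Ces1b and Ces1c also did not pass. Neither passed without Myc/Akt1 replicate 2 or 3, and Ces1b did not pass with DESeq2. The members' median log2 difference was -3.40, beside -0.26 over all genes tested. That overall shift was 0.0048 with TMM factors, 0.0090 with factors from the median of ratios and 0.05 with those from the upper quartile. All log2 differences are Myc/NrasG12V minus Myc/Akt1 on the log2(CPM + 1) scale, which understates the difference of genes at a few CPM.

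**Figure D1:**
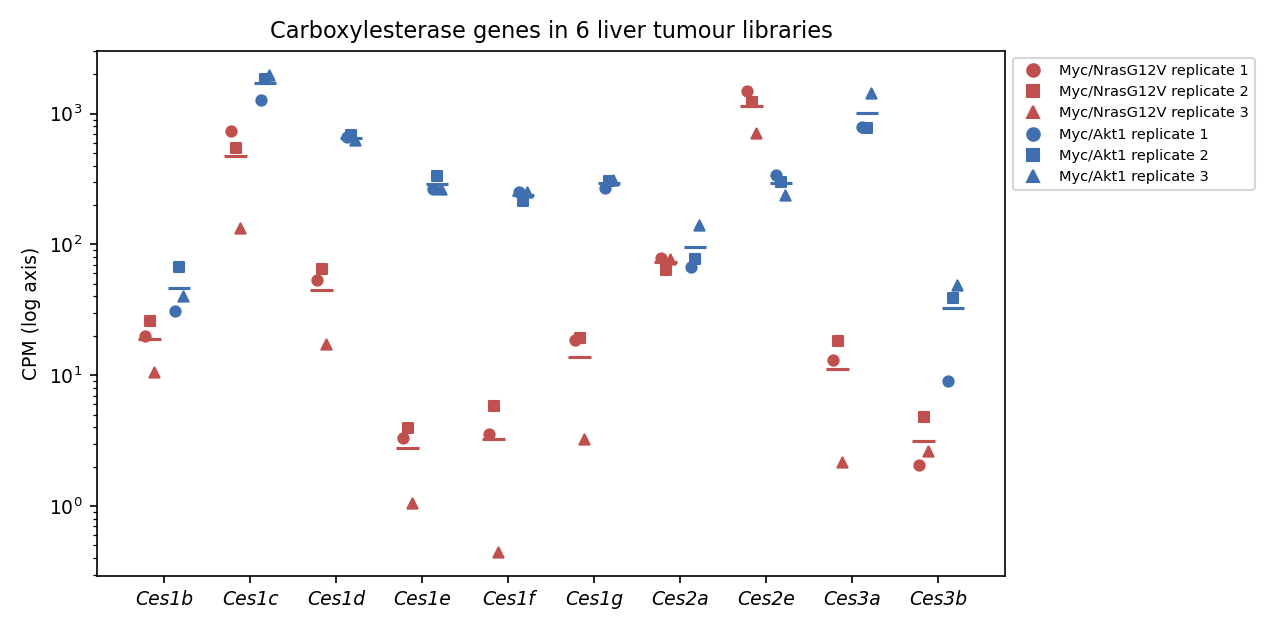
Level of each of the 10 carboxylesterase genes in each library, in CPM on a log axis, with Myc/NrasG12V left of Myc/Akt1; points are libraries and bars are group means. In 8 genes all Myc/NrasG12V libraries lie lower, Ces2e lies higher, and the groups of Ces2a overlap.

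The members of the Ces1 group lie on the minus strand of chromosome 8 (GRCm38), from the start of Ces1b at 93056728 to the end of Ces1g at 93337308. Together they had 558 ± 351 CPM in Myc/NrasG12V and 3224 ± 412 CPM in Myc/Akt1 (SD, n = 3 each), a sum 5.77-fold higher in Myc/Akt1. Ces1c (93099015 to 93131283), the secreted carboxylesterase of mouse plasma, had 742, 548 and 133 CPM in Myc/NrasG12V replicates 1, 2 and 3, against 1270, 1839 and 1984 CPM in Myc/Akt1. Its mean was 475 ± 311 CPM in Myc/NrasG12V and 1698 ± 377 CPM in Myc/Akt1, 3.58-fold higher in Myc/Akt1, with a log2 difference of -2.13 (SE 0.57). Replicate 3 was well below the other Myc/NrasG12V libraries, and without it the fold was 2.63.

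Ces1b (93056728 to 93080017), the closest relative of Ces1c in the group, had 20.1, 26.1 and 10.6 CPM in Myc/NrasG12V, against 31.1, 67.2 and 40.3 CPM in Myc/Akt1. Its means of 18.9 ± 7.79 CPM in Myc/NrasG12V and 46.2 ± 18.8 CPM in Myc/Akt1 differed by 2.44-fold, with a log2 difference of -1.26 (SE 0.37). The highest Myc/NrasG12V library and the lowest Myc/Akt1 library lay close together for this gene.

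Ces1d (93166068 to 93197838), also called triacylglycerol hydrolase, releases fatty acids from stored triacylglycerol for lipoprotein assembly. It had 53.7, 64.5 and 17.3 CPM in Myc/NrasG12V, against 664, 680 and 624 CPM in Myc/Akt1. The Myc/Akt1 libraries lay within a narrow band, and their mean was 14.5-fold higher, at 45.2 ± 24.7 CPM in Myc/NrasG12V and 656 ± 28.8 CPM in Myc/Akt1 (SD, n = 3 each). Ces1g (93302369 to 93337308), known in mice as a triacylglycerol hydrolase whose loss gives fatty liver and raised plasma lipids, had 18.6, 19.4 and 3.24 CPM in Myc/NrasG12V, against 268, 307 and 308 CPM in Myc/Akt1. Its mean of 13.7 ± 9.10 CPM in Myc/NrasG12V lay below one of 295 ± 22.7 CPM in Myc/Akt1 by a log2 difference of -4.63 (SE 0.53), a fold of 21.4.

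Ces1e (93201218 to 93229619), also called egasyn, holds the lysosomal enzyme beta-glucuronidase back in the endoplasmic reticulum. It had 3.29, 3.95 and 1.06 CPM in Myc/NrasG12V, against 264, 335 and 267 CPM in Myc/Akt1, and its means differed 104-fold, with 2.77 ± 1.51 CPM in Myc/NrasG12V and 289 ± 39.9 CPM in Myc/Akt1. Its neighbour Ces1f (93256236 to 93279747), a microsomal esterase, had 3.53, 5.83 and 0.447 CPM in Myc/NrasG12V, against 251, 216 and 253 CPM in Myc/Akt1. The mean of Ces1f was 3.27 ± 2.70 CPM in Myc/NrasG12V and 240.2 ± 20.7 CPM in Myc/Akt1. That fold of 73.5 was 51.3 without replicate 3 of Myc/NrasG12V and 121 without its replicate 2, and only for this member did leaving out a library move the fold by more than 1.5 times. The log2 differences were -6.35 (SE 0.32) for Ces1e and -6.08 (SE 0.49) for Ces1f. The next genes on either side of this pair, Ces1d and Ces1g, had differences of -4.03 (SE 0.42) and -4.63.

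Gusb, which encodes beta-glucuronidase, the partner of Ces1e, had 53.0, 61.0 and 56.4 CPM in Myc/NrasG12V, against 98.2, 97.7 and 65.8 CPM in Myc/Akt1. It fell by 0.59 on the log2 scale (SE 0.20), with a limma adjusted p of 0.0407. Under 11 of 16 alternatives it did not pass, among them all 3 other sets of scaling factors, with adjusted p from 0.00900 to 0.391 over the alternatives.

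The Ces2 and Ces3 genes lie on the plus strand, 11198 kb past Ces5a, the last gene of the first cluster. Ces2e (104926260 to 104934672), a microsomal esterase of liver and intestine, had 1484, 1223 and 713 CPM in Myc/NrasG12V, against 339, 302 and 236 CPM in Myc/Akt1. All 3 Myc/NrasG12V libraries lay above the highest Myc/Akt1 library, the opposite order to every Ces1 and Ces3 member. Its mean exceeded that of Myc/Akt1 3.90-fold, with 1140 ± 392 CPM in Myc/NrasG12V and 292 ± 51.8 CPM in Myc/Akt1, with a log2 difference of 1.91 (SE 0.29), and the fold was 4.63 without Myc/NrasG12V replicate 3. Ces2a (104734003 to 104741634), another microsomal esterase, had 78.9, 64.1 and 77.0 CPM in Myc/NrasG12V, against 66.7, 77.3 and 141 CPM in Myc/Akt1. Its log2 difference was -0.30 (SE 0.27), and its sign turned with each other set of scaling factors and without Myc/Akt1 replicate 3.

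Ces3a (105048601 to 105058413) and Ces3b (105083753 to 105093929) are esterases of mouse liver that lie next to each other. Ces3a had 13.1, 18.2 and 2.18 CPM in Myc/NrasG12V, against 788, 779 and 1439 CPM in Myc/Akt1. Its means differed 89.7-fold, with 11.2 ± 8.19 CPM in Myc/NrasG12V and 1002 ± 378 CPM in Myc/Akt1, with a log2 difference of -6.66 (SE 0.60). Ces3b had 2.05, 4.77 and 2.63 CPM in Myc/NrasG12V, against 9.04, 39.1 and 49.2 CPM in Myc/Akt1. The lowest Myc/Akt1 library of Ces3b was replicate 1, and the means of 3.15 ± 1.43 CPM in Myc/NrasG12V and 32.4 ± 20.9 CPM in Myc/Akt1 differed by 10.3-fold.

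Close copies could share reads. Of the distinct stretches of 75 bases, the length of a read, in the transcripts of Ces3a and Ces3b, 15.1% and 15.4% occurred in both genes, and their coding sequences were identical at 95.3% of 1716 aligned bases. The reads of Ces3b were 15.7%, 26.2% and 121% of those of Ces3a in Myc/NrasG12V replicates 1, 2 and 3, against 1.15%, 5.02% and 3.42% in Myc/Akt1. The 2 genes therefore did not keep one ratio across libraries, although replicate 3 of Myc/NrasG12V had few reads of either. Ces1b and Ces1c were identical at 91.2% of 1662 coding bases, and 4.50% of the stretches of Ces1b were shared, all with Ces1c. In Ces2a 11.4% were shared, all with Gm7208. In Ces1d, Ces1f and Ces1g no such stretch was found in another annotated transcript, and the share was 0.960% in Ces1e and 0.334% in Ces2e. How reads with several positions were counted was not given in the sources used here, so the split of reads within the pairs Ces3a and Ces3b, and Ces1b and Ces1c, is uncertain.

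Ces1b and Ces1c were also alike just before their first exon. The bases upstream of the start in RefSeq are shown for both on the minus strand of GRCm38.p6, with TGTTTGC, a core of sites bound by FOXA factors, in capitals. They come from chr8:93080018-93080267 for Ces1b and chr8:93131284-93131533 for Ces1c.
Ces1b: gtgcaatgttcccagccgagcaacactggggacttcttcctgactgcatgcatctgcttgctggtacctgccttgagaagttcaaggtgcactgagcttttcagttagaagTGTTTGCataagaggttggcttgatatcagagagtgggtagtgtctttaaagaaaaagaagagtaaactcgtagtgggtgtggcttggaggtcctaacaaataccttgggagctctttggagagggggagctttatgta
Ces1c: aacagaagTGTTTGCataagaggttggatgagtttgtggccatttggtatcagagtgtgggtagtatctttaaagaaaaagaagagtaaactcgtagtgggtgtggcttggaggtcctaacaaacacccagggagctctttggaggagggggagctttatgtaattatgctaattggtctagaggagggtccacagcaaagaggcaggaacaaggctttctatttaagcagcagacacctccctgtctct
Over the 144 bases that align they were identical at 95.1%. RefSeq promoter entries were found for 7 members, 8 entries in all, with 2 for Ces1b. Motifs were searched on both strands of the whole entries, which run past the start, so a match can lie outside the bases shown, and the 2 entries of Ces1b overlap. TGTTTGC was found for 2 of the 7 genes, Ces1b and Ces1c, or 3 of the 8 entries, and in 5.07% of 32851 promoters of the same length. As these 2 genes are alike there, their matches are not separate finds. TATAAA was found for 2 of the 7 genes, or 2 of the 8 entries, and in 13.6% of all promoters. CCAAT was found for 5 of the 7 genes, or 6 of the 8 entries, and in 37.4% of all. TGTTTAC, another FOXA core, was found for 0 of the 7 genes and in 3.65% of all promoters. A match is a description of letters and not of a bound site.

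Summed over the 10 members, 2419, 1978 and 961 CPM were found in Myc/NrasG12V, against 3951, 4641 and 5343 CPM in Myc/Akt1. The members thus took 0.179% of reads in Myc/NrasG12V and 0.465% in Myc/Akt1, and the sum in Myc/NrasG12V was 0.385 of that in Myc/Akt1. Without Ces2e the sum was 646 ± 356 CPM in Myc/NrasG12V and 4353 ± 747 CPM in Myc/Akt1, or 6.74-fold higher in Myc/Akt1. The 2 members of the Ces3 group summed to 14.3 ± 9.12 CPM in Myc/NrasG12V and 1034 ± 393 CPM in Myc/Akt1, a fold of 72.2.

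Per kilobase of exonic bases, the order of the members differed between the tumours. In Myc/NrasG12V Ces2e led with 422 ± 145 CPM per kilobase, before Ces1c with 204 ± 134, Ces2a with 31.1 ± 3.41 and Ces1d with 19.1 ± 10.4. Below them came Ces1b with 9.63, Ces1g with 5.76, Ces3a with 4.25, Ces1e with 1.26, Ces3b with 1.23 and Ces1f with 0.996. Of the 9 pairs of neighbours in that order 6 kept it in each of the 3 libraries, and the others were Ces2a with Ces1d, Ces1e with Ces3b and Ces3b with Ces1f. In Myc/Akt1 Ces1c led with 731 ± 162 CPM per kilobase, before Ces3a with 381 ± 144, Ces1d with 277 ± 12.2, Ces1e with 132 ± 18.2, Ces1g with 123 ± 9.51 and Ces2e with 108 ± 19.2. Below them came Ces1f with 73.1, Ces2a with 40.3, Ces1b with 23.5 and Ces3b with 12.6. Again 6 of the 9 pairs kept the order in each library, and the others were Ces1e with Ces1g, Ces1g with Ces2e and Ces2a with Ces1b, each of which turned in 1 library.

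Ces2e made up 57.8%, 58.3% and 71.3% of the summed level per kilobase of the 10 members in Myc/NrasG12V, against 7.80%, 5.83% and 4.02% in Myc/Akt1. Ces1c made up 26.5 ± 9.64% in Myc/NrasG12V and 38.2 ± 3.77% in Myc/Akt1 (SD, n = 3 each). Ces3a made up 0.547 ± 0.335% in Myc/NrasG12V and 19.7 ± 4.91% in Myc/Akt1, and Ces1d 2.62 ± 0.794% in Myc/NrasG12V and 14.8 ± 2.67% in Myc/Akt1. The 6 members that end in the HXEL codons made up 64.8 to 82.6% in Myc/NrasG12V and 33.9 to 46.2% in Myc/Akt1, and in Myc/NrasG12V most of that share was Ces2e. Ces2a also took a larger share in Myc/NrasG12V, with means of 5.27% against 2.07%. Ces1d, Ces1e, Ces1f and Ces1g each took a smaller share there than in Myc/Akt1. The median log2 difference of the 6 members was -4.33, beside -2.45 for the 4 members without these codons.

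**Figure D2:**
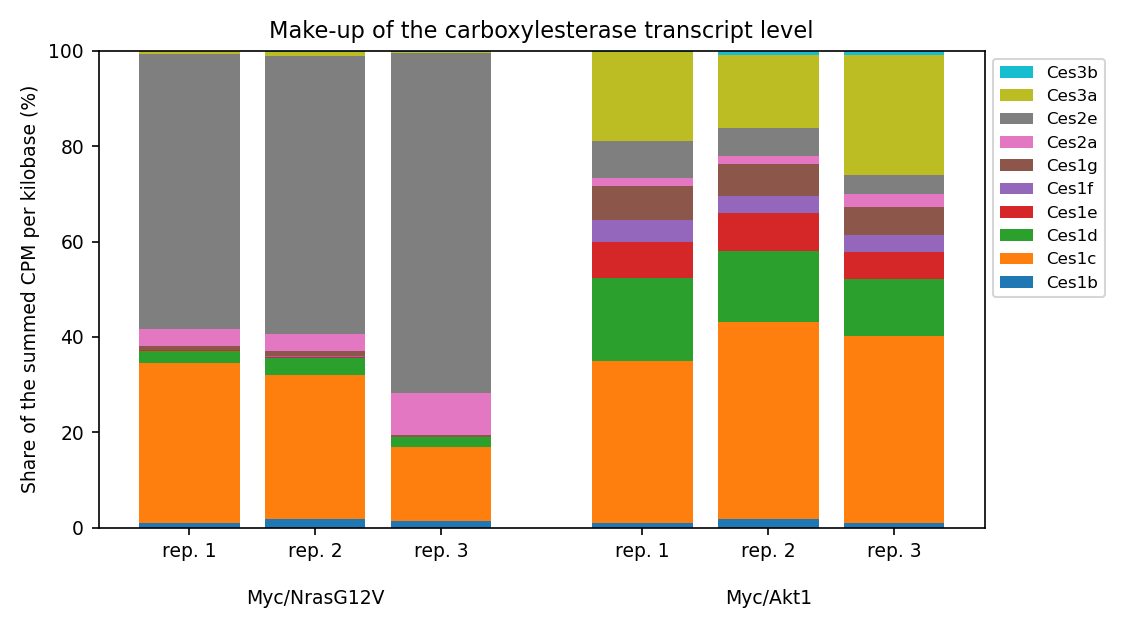
Share of each member in the summed level of the 10 members, as percent of CPM per kilobase of exonic bases, in each of the 6 libraries with Myc/NrasG12V on the left. Ces2e takes 57.8 to 71.3% in Myc/NrasG12V libraries and 4.02 to 7.80% in Myc/Akt1 libraries, where Ces1c, Ces3a and Ces1d take more.

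Within Myc/NrasG12V, replicate 3 was the lowest library for 8 of the 10 members, the exceptions being Ces2a and Ces3b, and the highest for 0. This was the library with the highest sums of neutrophil and erythroid markers, whose part in the result was not tested. Without that library the members' sum was 2.11-fold higher in Myc/Akt1, and the folds of Ces1d, Ces1e and Ces3a were 11.1, 79.8 and 64.0. The hepatocyte markers were mixed. Alb, Apoa1 and Serpina1c were higher in every Myc/NrasG12V library, Ttr and Asgr1 were lower in every one, and Cps1 overlapped. Alb, at 110858 CPM in Myc/NrasG12V and 33563 CPM in Myc/Akt1, made up most of their sum. The part of the hepatocyte markers in the result was not tested either. Within Myc/Akt1, replicate 3 was the highest library for 6 members and replicate 1 the lowest for 6.

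Of the other 10 carboxylesterase genes 4 were tested. Ces2g, which lies 27.0 kb past Ces2e, had 212, 185 and 127 CPM in Myc/NrasG12V, against 192, 218 and 175 CPM in Myc/Akt1, with a limma adjusted p of 0.522 and overlapping groups. Its log2 difference of -0.19 turned positive with other scaling factors. Ces2c had 23.0, 16.7 and 13.4 CPM in Myc/NrasG12V, against 10.7, 9.98 and 10.9 CPM in Myc/Akt1, with a log2 difference of 0.67 (SE 0.23) and a limma adjusted p of 0.0511. All 3 Myc/NrasG12V libraries of Ces2c lay above those of Myc/Akt1, and it passed in 8 of 16 alternatives, edgeR and DESeq2 among them, with adjusted p from 0.00125 to 0.182. Of its stretches of 75 bases 22.1% also occur in other genes, mainly Ces2d-ps. Ces2b averaged 4.23 ± 1.74 CPM in Myc/NrasG12V and 2.32 ± 0.288 CPM in Myc/Akt1 (SD, n = 3 each), with a limma adjusted p of 0.125. Ces2h averaged 0.289 ± 0.153 CPM in Myc/NrasG12V and 1.06 ± 0.506 CPM in Myc/Akt1, and its groups did not overlap. It passed narrowly, with a limma adjusted p of 0.0475, and did not pass in 11 of 15 alternatives. Over all 15 alternatives the adjusted p of Ces2h ran from 0.0234 to 0.131.

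Of the other family genes 5 had too few reads to be tested and 1 had none. Over the 3 libraries of a group Ces1a had 4 reads in Myc/NrasG12V and 40 in Myc/Akt1, Ces1h 1 and 2, Ces2d-ps 5 and 18, and Ces2f 1 and 1. Ces4a had 53 reads in Myc/NrasG12V and 10 in Myc/Akt1. Ces5a, known for its role in the epididymis, had 0 reads in all 6 libraries.

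Along the chromosome the sign of the difference turned within the second cluster. Ces2e was higher in Myc/NrasG12V, Ces2g after it was not called, Ces2h passed narrowly as lower, and Ces3a, 114 kb from Ces2e, was lower. Annotated within 500 kb of a member were 56 genes of other families, and 31 of them were tested. Of these 1 rose and 5 fell in Myc/NrasG12V, or 19.4%, beside 39.5% of all genes. With TMM factors 5 rose and 4 fell, beside 16.2% and 17.9% of all genes. The median log2 difference of the tested neighbours was -0.05, beside -0.26 over all genes. Cmtm4, which encodes a membrane protein related to chemokine-like factors, had the lowest adjusted p among them and fell to 21.8 ± 0.597 CPM in Myc/NrasG12V, against 72.4 ± 14.9 CPM in Myc/Akt1 (SD, n = 3 each, limma adjusted p 4.11e-04). Pdp2, a phosphatase that activates pyruvate dehydrogenase, fell by 2.05 on the log2 scale (limma adjusted p 0.00290). Car7, a carbonic anhydrase, and Cklf, a chemokine-like factor, fell by 0.98 and 0.82 at levels of a few CPM, and Gnao1, a G protein subunit, rose by 0.74 at about 1 CPM. Cklf did not pass in 5 of 16 alternatives, among them edgeR, DESeq2 and without Myc/Akt1 replicate 1, and Gnao1 not in 2 of 15, without Myc/Akt1 replicate 1 or 2. Atp6v0d1, a subunit of the vacuolar proton pump, fell by 0.47, a call that 13 of 16 alternatives did not keep. The tested genes nearest to the clusters, Lpcat2 and Gnao1 around the Ces1 genes and Fam96b and Cbfb around the Ces2 and Ces3 genes, were not called except for Gnao1.

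**Figure D3:**
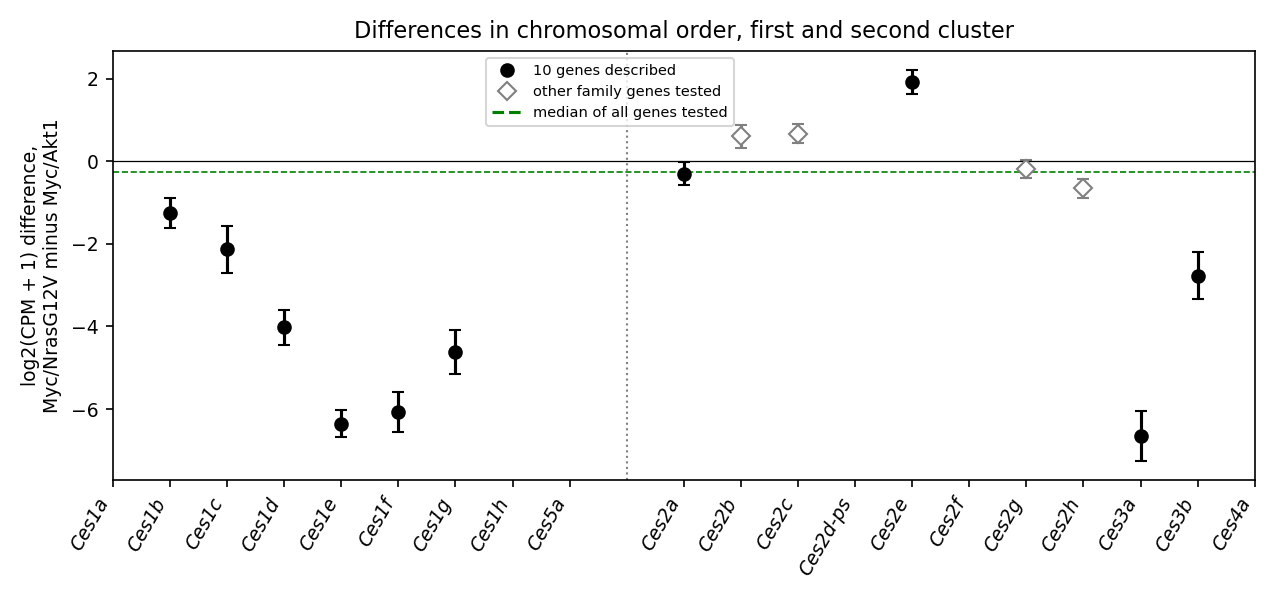
Log2 difference of the carboxylesterase genes, Myc/NrasG12V minus Myc/Akt1, with error bars of 1 SE, in their order along each cluster; genes without a point were not tested. The Ces1 members lie between -1.26 and -6.35, Ces2e at 1.91, and Ces3a and Ces3b at -6.66 and -2.77.

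Other lipases and esterases of the liver were compared next, from a list of 24 genes. This list and the gene lists after it were chosen with earlier results of these data known. Their counts, medians and p-values are therefore a description and not an independent comparison. All 24 were tested, 1 rose and 14 fell in Myc/NrasG12V, beside 10% and 29.5% of all genes, and their median log2 difference was -0.93. With TMM factors 3 rose and 10 fell, beside 16.2% and 17.9% of all genes. Lipg, the endothelial lipase, had 0.502 ± 0.231 CPM in Myc/NrasG12V and 12.3 ± 0.917 CPM in Myc/Akt1 (SD, n = 3 each, limma adjusted p 5.39e-05). Mgll, which splits monoacylglycerol, had 15.9 ± 4.59 CPM in Myc/NrasG12V and 267 ± 97.5 CPM in Myc/Akt1 (limma adjusted p 7.60e-05). Pnpla8, a phospholipase of mitochondria and peroxisomes, fell by 1.67 and Abhd6, another monoacylglycerol hydrolase, by 2.22 on the log2 scale. Pnpla2, the main lipase of lipid droplets and named here after its value was seen, had 108 CPM in Myc/NrasG12V and 83.1 CPM in Myc/Akt1 and did not pass (limma adjusted p 0.474).

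Genes of lipid droplets and very low density lipoprotein assembly gave 1 that rose and 10 that fell of 21 tested, beside 10% and 29.5% of all genes, with a median log2 difference of -0.68. With TMM factors 4 rose and 8 fell, beside 16.2% and 17.9% of all genes. Plin5, a droplet coat protein of tissues that burn fat, had 16.0 ± 5.98 CPM in Myc/NrasG12V and 135 ± 15.1 CPM in Myc/Akt1 (SD, n = 3 each, limma adjusted p 1.20e-04). G0s2, an inhibitor of the lipase encoded by Pnpla2, had 2.10, 2.71 and 2.13 CPM in Myc/NrasG12V, against 43.2, 46.5 and 217 CPM in Myc/Akt1 (limma adjusted p 4.82e-04). Its fold of 44.2 rested in part on Myc/Akt1 replicate 3, and without it was 19.4. Fitm2, needed to form droplets, fell by 1.37, and Hilpda, a droplet protein induced by low oxygen, rose by 1.65 on the log2 scale.

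Targets of the drug receptors CAR and PXR, the class to which several carboxylesterases belong, gave 12 that fell and 0 that rose of 22 tested, beside 29.5% and 10% of all genes, with a median log2 difference of -1.62. With TMM factors 10 fell and 0 rose, beside 17.9% and 16.2% of all genes. With median-of-ratios or upper-quartile factors 10 fell and 1 rose. Of all 14365 genes tested, 2515 fell and 2366 rose with median-of-ratios factors, and 2345 fell and 2544 rose with upper-quartile factors. Aldh1a1, which oxidises retinal, had 68.5, 61.0 and 19.6 CPM in Myc/NrasG12V, against 3030, 2604 and 2130 CPM in Myc/Akt1 (limma adjusted p 6.47e-05). Its relative Aldh1a7 fell by 6.12, the glutathione transferase Gsta1 by 4.30 and the cytochrome P450 Cyp2c55 by 2.91 on the log2 scale. These 4 genes were named because they had the lowest adjusted p of the list. The 10 genes of the list that did not pass had log2 differences of either sign. Cyp2b10, the usual marker of CAR activity and named here after its value was seen, had 8.24 CPM in Myc/NrasG12V and 21.3 CPM in Myc/Akt1 (limma adjusted p 0.164).

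Of 23 transcription factors of the hepatocyte, 2 rose and 6 fell, or 34.8%, beside 39.5% of all genes, with a median log2 difference of -0.29. With TMM factors 3 rose and 3 fell, beside 16.2% and 17.9% of all genes. Nr1h4, the bile acid receptor FXR, had 47.3 ± 12.9 CPM in Myc/NrasG12V and 203 ± 26.1 CPM in Myc/Akt1 (SD, n = 3 each, limma adjusted p 2.90e-04). Foxa3 had 75.5 ± 11.3 CPM in Myc/NrasG12V and 22.6 ± 8.03 CPM in Myc/Akt1 (limma adjusted p 0.00126). Nr1h3, the oxysterol receptor LXR alpha, fell by 1.14 and Nfe2l2, the oxidative stress factor NRF2, by 0.91 on the log2 scale. Named after their values were seen, Nr1i2, which is PXR, had 102 CPM in Myc/NrasG12V and 182 CPM in Myc/Akt1 (limma adjusted p 0.0203, lost in 6 of 16 alternatives, with a range from 0.0158 to 0.210), and Hnf4a had 628 CPM in Myc/NrasG12V and 601 CPM in Myc/Akt1 (0.792). Nr1i3, which is CAR and was also named after its values were seen, had 75.9 CPM in Myc/NrasG12V and 32.6 CPM in Myc/Akt1 (limma adjusted p 0.0879, passing in 7 of 16 alternatives with a range from 0.00670 to 0.272). The ratio of its means, Myc/Akt1 over Myc/NrasG12V, was 0.430, and 0.649 without Myc/NrasG12V replicate 3.

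Genes that hold proteins in the endoplasmic reticulum or fold them there gave 2 that rose and 5 that fell of 16 tested, together 43.8%, beside 39.5% of all genes. With TMM factors 2 rose and 1 fell, beside 16.2% and 17.9% of all genes. Kdelr3, a receptor for retrieval signals, had 11.0 ± 0.179 CPM in Myc/NrasG12V and 1.75 ± 0.401 CPM in Myc/Akt1 (SD, n = 3 each, limma adjusted p 2.31e-04). Kdelr1 and Kdelr2, also on the list and named after their values were seen, had higher CPM in both tumours and did not pass. Kdelr1 had 89.6 CPM in Myc/NrasG12V and 99.5 CPM in Myc/Akt1 (limma adjusted p 0.555). Kdelr2 had 93.1 CPM in Myc/NrasG12V and 123 CPM in Myc/Akt1 (limma adjusted p 0.125). Of the 2 oxidases of the compartment, Ero1l rose by 0.77 and Ero1lb fell by 1.18 on the log2 scale. Fkbp2, a prolyl isomerase, fell by 0.82 and did not pass in 8 of 16 alternatives.

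**Figure D4:**
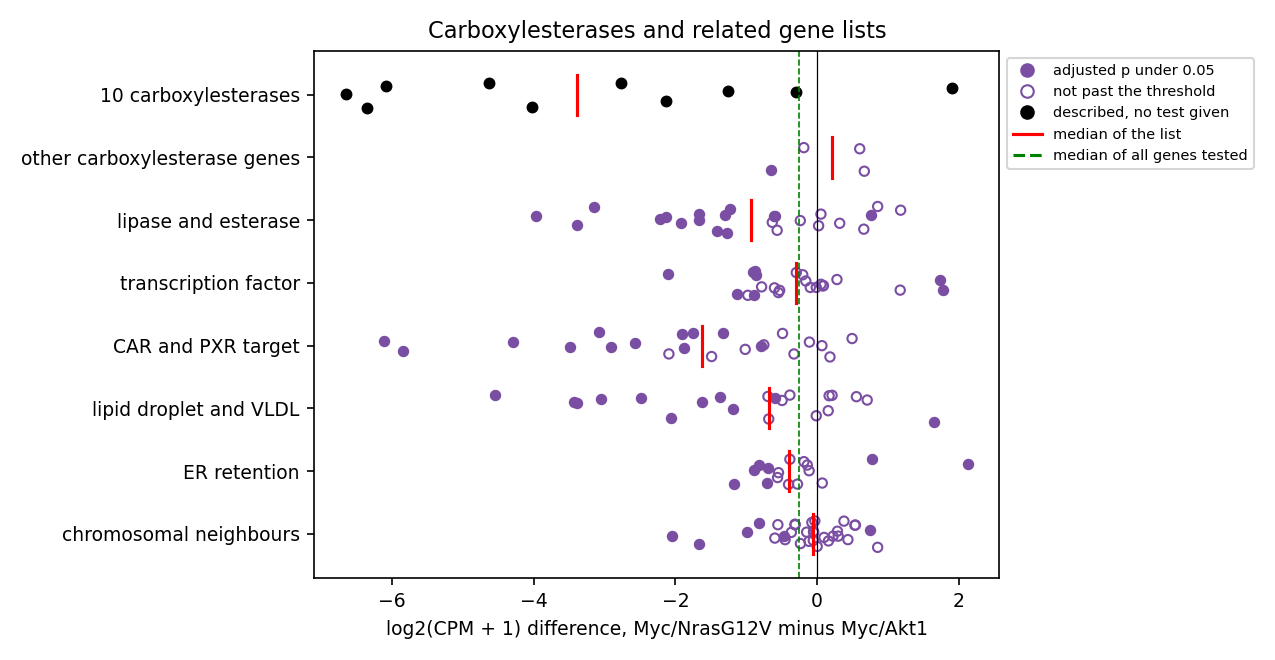
Log2 difference, Myc/NrasG12V minus Myc/Akt1, of the genes of each list; points are tested genes and the bars mark list medians. The members' median lies at -3.40, that of the CAR and PXR targets at -1.62, and that of the chromosomal neighbours at -0.05. The members were picked with this contrast known, so the place of their median is a description.

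The genes whose profile lay nearest to the members' median profile were sought among 10394 genes outside the family with a mean of at least 5 CPM. Likeness was the root mean square distance of centred log2(CPM + 1) values over the 6 libraries. The nearest 5 were Keg1 at 0.247, Cyp2j5 at 0.260, Gsta2 at 0.340, Crot at 0.348 and Akr1c14 at 0.370. Keg1, a glycine N-acyltransferase relative, had 5.87, 5.79 and 0.839 CPM in Myc/NrasG12V, against 39.3, 80.3 and 60.6 CPM in Myc/Akt1. Cyp2j5, a cytochrome P450 that oxidises arachidonic acid, had 27.6, 53.6 and 11.6 CPM in Myc/NrasG12V, against 337, 329 and 360 CPM in Myc/Akt1. Crot, a peroxisomal carnitine acyltransferase, had 83.2, 129 and 34.3 CPM in Myc/NrasG12V, against 1034, 974 and 764 CPM in Myc/Akt1. In each of these 3 genes Myc/NrasG12V replicate 3 was the lowest of the 6 libraries. The members' median profile was itself lowest there, so this follows in part from how the genes were chosen.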

How the data were processed

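The libraries were poly(A) selected, stranded and sequenced single-end, per the labels' protocols. Values deposited by the authors were CPM per gene. STAR 2.6.1c, Subread 1.6.3, edgeR 3.22.5 and GRCm38 are named in the submitters' processing notes; which annotation release and strand setting were used, and how reads with several positions were treated, was not given in the sources used here. All CPM values corresponded to whole reads, which were recovered. Genes were filtered with filterByExpr of edgeR 4.0.16, and 14365 of 39179 were tested with a two-sided limma 3.58.1 fit in R 4.3.3 of log2(CPM + 1), taking Myc/NrasG12V minus Myc/Akt1 and Benjamini-Hochberg adjustment over all of them and a threshold of 0.05. Positions came from GENCODE M21, which held 96.2% of the gene IDs. The procedure was tested on simulated data with few changed genes, in both directions, and no overall shift, so that test does not bear on the choice of scaling. The members and lists were chosen with earlier results of these data known. Named were all members and family genes with reads, of each list the 4 genes of lowest adjusted p and Gusb, every neighbour called and the nearest tested one on each side, and the 5 nearest profiles. Alternatives were other scaling factors, filters and pseudocounts, edgeR, DESeq2 1.42.0, the replicate number as a block, and each library left out.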

Additional observations from a re-analysis of the deposited data

How the results depend on the processing

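The summed level of the members in Myc/NrasG12V was 0.316 to 0.502 of that in Myc/Akt1 over the alternatives. Of the other carboxylesterase genes, 1 was called, Ces2h as lower. With any other set of scaling factors or the 1 CPM filter the 1 called was Ces2c as higher. With DESeq2 or edgeR 2 were called, both higher, with a pseudocount of 0.1 there were 2, 1 each way, with a pseudocount of 5 there were 0, and 0 to 3 when a library was left out (3 without Myc/NrasG12V replicate 3, 1 without Myc/Akt1 replicate 1, 0 without any other). Of the endoplasmic reticulum list 7 were called, against 3 with any other set of scaling factors, edgeR or DESeq2, and 3 to 6 without a library. Leaving out a library gave 4 to 8 transcription factors, fewest without Myc/Akt1 replicate 1, and 3 to 7 chromosomal neighbours, fewest without the same library. With the longest transcript as gene length, 6 places in the order of the members changed. The log2 difference of Ces2g, -0.19, turned to 0.13 with TMM and with median-of-ratios factors, 0.18 with upper-quartile factors, 0.17 with edgeR, 0.18 with DESeq2 and, over the libraries left out, ran from -0.34 to 0.025, the only positive value being that without Myc/NrasG12V replicate 3. The cause was not tested for any of these. Alternative values were computed for 31 of the genes that the naming rule gave besides the members, 494 in all. Of these 426 kept direction and call, 51 lost the call, 11 gained it and 6, all of Ces2g, turned. The nearest profiles and the nearest neighbours that were not called were left out of this count. With the replicate number as a block, 5530 genes were called in place of 5677. Deviations of samples with the same number correlated at -0.08, 0.11 and 0.08, so the numbers were not taken to pair samples. Depth limits what can be said of the untested family genes: in the shallowest library a count of 0 still allows up to 0.168 CPM.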
